A study of Mus musculus with 5 samples.

Results

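The heat shock and DnaJ chaperone genes were examined in the epidermis of mice given forskolin or cAMP on the skin. Members were taken by name from a table of normalized RNA-seq values: protein-coding genes of the Dnaja, Dnajb, Dnajc, Hspa, Hspb and Hsp90 series, and Hspd1, Hspe1, Hsph1 and Hsf1. The rule found 71 of the 21667 genes in the table: 42 DnaJ genes (4 Dnaja, 12 Dnajb and 26 Dnajc), 13 Hspa, 7 Hspb and 3 Hsp90 genes, the 4 genes given by full name, and Hspbp1 and Hspbap1. The last 2 encode partners of HSP70 and of a small heat shock protein rather than heat shock proteins, and the rule took them in by their names. Of the 71, 65 passed the filter on low values and were tested.

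All 5 libraries came from the total epidermis of wildtype C57BL/6 male mice at postnatal day 49. The treatments were compared with 1 library labelled untreated, called the control here: 10 µM forskolin, which activates adenylyl cyclase, and 1.325 mM cAMP, the messenger that the enzyme makes, with 2 libraries each. The back was shaved, and treatment was topical, 3 times over 5 days, in DMSO and a PLO lotion vehicle. Whether the control skin received the vehicle is not labelled, so treatment and vehicle cannot be told apart against it. Nor is it labelled whether the 2 libraries of a treatment came from separate animals: the p-values reflect library-to-library spread alone, possibly technical. Skin was digested with trypsin overnight before RNA was extracted, a handling step that all groups shared. The series addresses Creb, a transcription factor activated by cAMP, in the acceleration of the hair cycle.

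Heat shock proteins bind unfolded or partly folded proteins and keep them from aggregating. The HSP70 proteins do this in cycles of ATP hydrolysis that J-domain (DnaJ) proteins start and nucleotide exchange factors end, while HSP90 matures kinases and steroid receptors and the small heat shock proteins hold unfolded clients without ATP. Under stress the transcription factor Hsf1 binds repeats of a short element in the promoters of many of these genes. The endoplasmic reticulum (ER) and the mitochondrion each have their own set, and keratinocytes of the upper epidermis are known for high levels of the small heat shock protein Hspb1.

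The control was made up unlike the other 4 libraries. Its mitochondrially encoded genes held 69.3% of the summed values (43.2% to 58.1% with treatment), and its nuclear genes, pseudogenes and rRNA left out, held 7.9% (26.0% to 38.0% with treatment). Estimated depths, in units of 1e6 reads, ran from 34.2 to 51.7. Levels below are therefore scaled CPM, the deposited CPM (reads relative to the depth of their library) divided by a median-of-ratios size factor for the library, which was 0.317 for the control and 1.12 to 1.65 for the others. Changes are log2 differences of scaled CPM + 1 with their standard errors (SE). The deposited scale is named for the main results that it turns. Keratinocyte markers, 8 of 8 listed in every library, fitted the labelled tissue and summed to 8096 scaled CPM in the control and 3267 to 5893 with treatment. Sebocyte markers summed to 476 in the control, 894 and 1516 with forskolin and 2642 and 4384 with cAMP. Skeletal muscle markers summed to 251 in the control and 68.2 to 170 with treatment. As deposited, the control had the lowest sum of keratinocyte markers (2567 against 3649 to 8379) and of muscle markers (79.7 against 113 to 190). The control had 6 of 8 endothelial markers under 1 read. In these tissue samples fewer cells of a type and less RNA per cell cannot be told apart.

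The chaperone genes together took 0.831% of nuclear values in the control, 0.850% and 0.775% with forskolin and 0.896% and 0.936% with cAMP. Among genes compared per kb of transcript, Hsp90ab1 stood highest with a mean of 287 scaled CPM per kb over the 5 libraries, followed by Hspa8 at 105, Hspa5 at 42.8, Hsp90b1 at 41.6, Dnajc7 at 41.6, Hspe1 at 37.9, Hspb1 at 36.9, Hsp90aa1 at 36.8, Hspa4 at 32.5 and Hspa9 at 25.3. Within each library Hsp90ab1 was first and Hspa8 second of these genes. The 3 highest genes held 41.5% of all the members' per-kb signal. The neighbours from Hspa5 to Hsp90aa1 in this order lay closer together than their own libraries did.

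**Figure D1:**
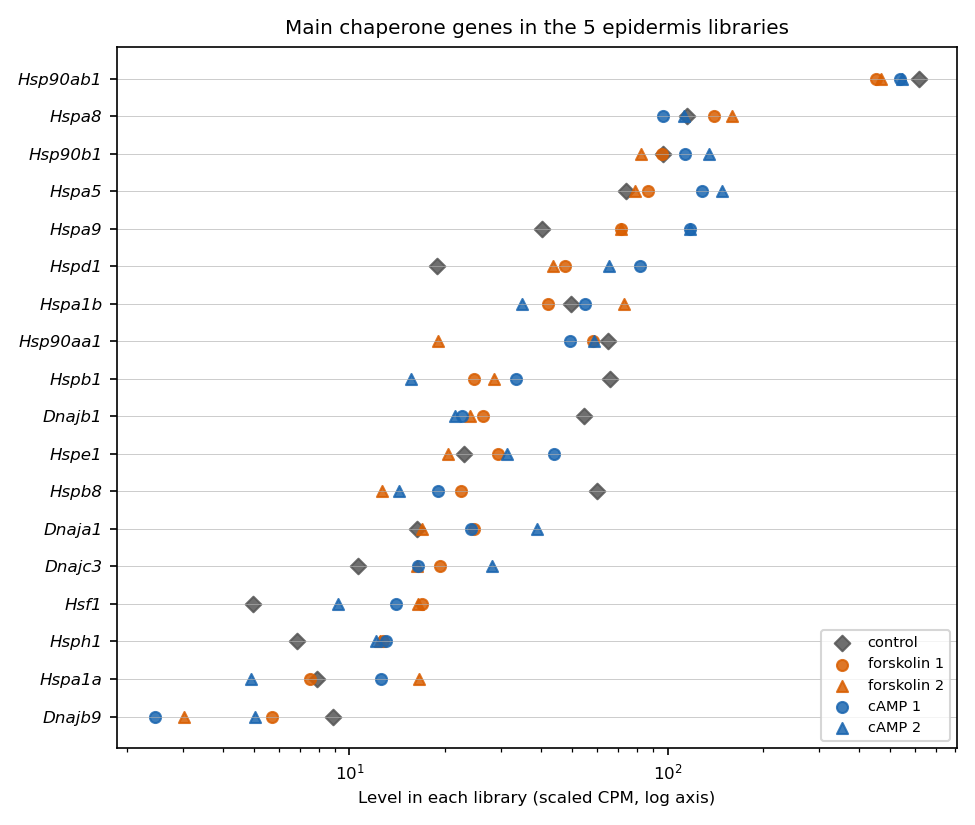
Level of the 18 chaperone genes fixed by name in each of the 5 libraries (scaled CPM, log axis); each point is 1 library, with the 2 libraries of a treatment in 1 color. Hspb1, Hspb8 and Dnajb1 have the control to the right of every treated library, a direction that the deposited CPM does not share, and Hspd1, Hspa9 and Hsf1 have it to the left.

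Against the control, a small group of members moved in opposite directions. With forskolin, limma's test adjusted by Benjamini-Hochberg over the 13764 genes tested called 10 of 65 members, 15.4%, where 21.8% of all tested genes passed. There were 6 rises (Dnajb5, Dnajc6, Dnajc30, Hsf1, Dnajc1 and Hspd1) and 4 falls (Hspb8, Dnajc19, Hspb1 and Dnajb1); of all tested genes 14.4% passed as higher and 7.39% as lower. With cAMP, 15 of 65 members passed, 23.1%, beside 22.6% of all tested genes (14.8% higher and 7.78% lower). These were 9 rises (Dnajc30, Hspb11, Hspd1, Dnajc6, Hspbap1, Dnajb5, Hspa9, Hspb6 and Hspbp1) and 6 falls (Hspb8, Dnajc19, Dnaja4, Hspb1, Hspa2 and Dnajb1). The share of members called was thus near that of all genes with cAMP and below it with forskolin. Both comparisons use the same control library. With no filter on low values 1 of the 10 forskolin calls was kept, that of Dnajc6, which was under 1 read in the control, and 6 of the 15 cAMP calls. Dnajc6 and, with cAMP, Hspb11 were called with under 1 read in the control, and without them the counts are 9 with forskolin and 13 with cAMP. Dnajb5, Dnajc30, Hspb6 and Hspbap1 had 0.0607 to 0.344 deposited CPM in the control, below the filter's 1 CPM. All of these genes are counted among the calls but passed the filter only through treated libraries. The counts of 9 and 13 still hold Dnajb5 and Dnajc30 and, with cAMP, Hspb6 and Hspbap1. The rises of genes with at least 1 deposited CPM in the control were Hsf1, Dnajc1 and Hspd1 with forskolin. With cAMP they were Hspd1, Hspa9 and Hspbp1.

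The median member changed by 0.16 log2 units with forskolin and 0.28 with cAMP, beside 0.18 and 0.16 for all tested genes. On the deposited scale the 2 all-gene medians were 1.69 and 1.66, and 44 and 45 members passed as higher with none lower. Of all tested genes 66.7% and 65.6% passed on that scale, 66.3% and 65.1% as higher and 0.341% and 0.436% as lower. Below, a gene is said to pass or not on the scaled values unless the deposited scale is named. Of the genes described below with no call on the scaled values, those that passed as higher on the deposited scale include Hspa1a, Hspa1b, Hspa5, Hspa8, Hsph1, Hsp90ab1, Hsp90b1, Hspe1, Dnaja1 and Dnajc3 in both comparisons, Hspa9 with forskolin, and Hsf1 and Hsp90aa1 with cAMP. Each fall named here is therefore a fall relative to the other genes of the library: on the deposited scale all 6 genes that fell in either comparison had positive changes, from 0.16 to 0.95, that did not pass.

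**Figure D2:**
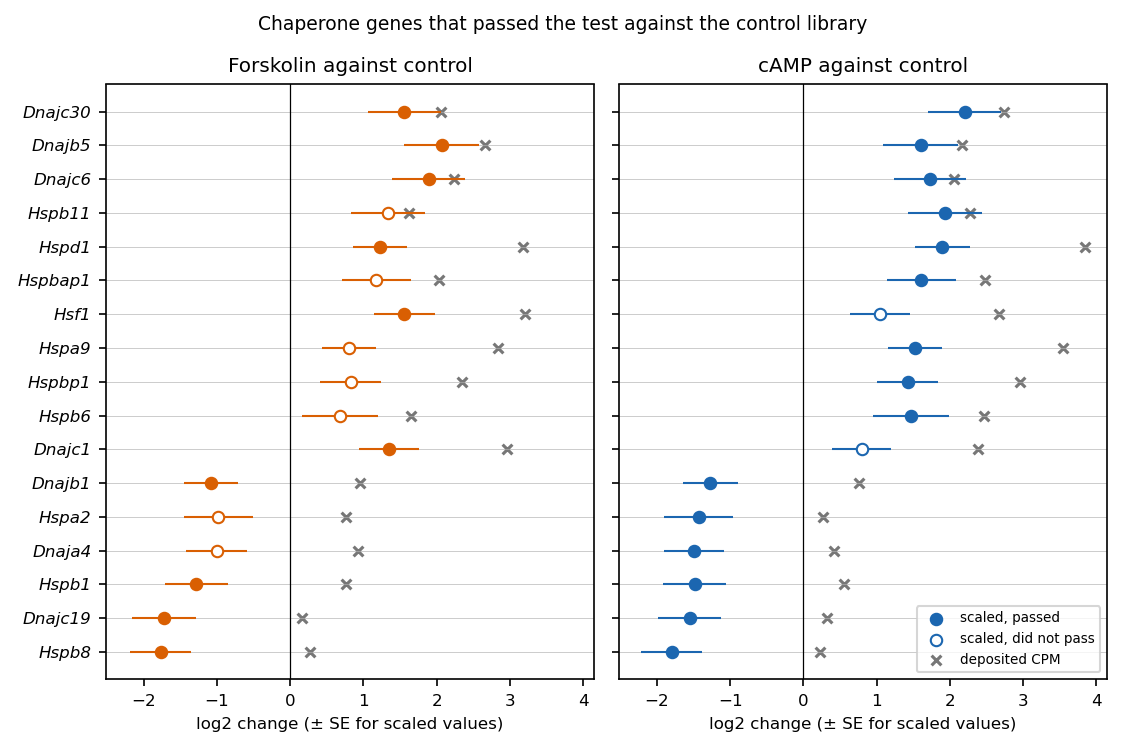
Log2 change against the control library of each chaperone gene that passed in at least 1 of the 2 comparisons: forskolin on the left, cAMP on the right. Circles are scaled values with their SE (filled where the gene passed), and crosses are the deposited CPM, on which every gene lies above 0, the lower ones included.

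Hsf1, the master regulator of the heat shock response (ENSMUSG00000022556, chromosome 15, 76477445 to 76500972), had 4.98 scaled CPM in the control, 16.9 and 16.4 with forskolin and 14.0 and 9.19 with cAMP. The control was below all 4 treated libraries, and the forskolin libraries were above both cAMP libraries. Hsf1 rose with forskolin by 1.56 log2 units (SE 0.41, limma adjusted p = 0.0134). With cAMP its change was 1.05 (SE 0.41), which did not pass (limma adjusted p = 0.0761), and the difference between the treatments was 0.51 (SE 0.34, limma adjusted p = 0.628). Hsf2, which pairs with Hsf1 on DNA, had 15.4 in the control against 5.14 to 9.46 with treatment, with changes of -1.09 (forskolin) and -1.02 (cAMP) that did not pass (limma adjusted p = 0.0928 and 0.118) and that were 0.78 and 0.85 on the deposited scale. Hsf4 was low in every library, 0.402 to 2.04 scaled CPM.

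Promoters were searched for the elements through which Hsf1, Creb and the ER stress factors are known to act, in RefSeq windows (GRCm38.p6, 250 bases before to 50 after the start). A window was found for 57 of the 71 members. Those without one include Hsf1, Hspa8, Hspa9, Hsp90aa1, Hsp90ab1 and Dnajc30. In 44 of the 57 the start lay within 100 bases of that of the most abundant transcript. The sequences below are the 200 bases before the start of 4 genes that bear on the results: Hspb1, which fell; Hspd1, which rose as listed; Hspa1b, the classic inducible HSP70 gene, which did not pass; and Hspa5, the main ER chaperone gene. Each runs 5′ to 3′ on the gene's strand. Capitals mark heat shock elements of 2 units (GAANNTTC or TTCNNGAA) in the first 3 and the ER stress element (CCAAT and CCACG with 9 bases between them) in the last.
Hspb1, chr5:135887719-135887918, plus strand: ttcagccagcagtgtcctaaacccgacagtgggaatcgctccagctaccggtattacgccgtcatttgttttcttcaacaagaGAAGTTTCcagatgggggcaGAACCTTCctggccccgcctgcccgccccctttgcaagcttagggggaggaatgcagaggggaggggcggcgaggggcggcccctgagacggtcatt
Hspd1, chr1:55087933-55088132, minus strand: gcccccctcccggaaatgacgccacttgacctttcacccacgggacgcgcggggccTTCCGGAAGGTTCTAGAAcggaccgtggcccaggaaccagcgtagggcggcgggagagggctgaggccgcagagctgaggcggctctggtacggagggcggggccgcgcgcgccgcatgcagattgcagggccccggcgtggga
Hspa1b, chr17:34959239-34959438, minus strand: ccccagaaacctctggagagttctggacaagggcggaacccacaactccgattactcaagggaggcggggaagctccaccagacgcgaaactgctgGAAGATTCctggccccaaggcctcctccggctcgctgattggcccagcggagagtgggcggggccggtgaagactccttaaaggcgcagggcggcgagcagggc
Hspa5, chr2:34771890-34772089, plus strand: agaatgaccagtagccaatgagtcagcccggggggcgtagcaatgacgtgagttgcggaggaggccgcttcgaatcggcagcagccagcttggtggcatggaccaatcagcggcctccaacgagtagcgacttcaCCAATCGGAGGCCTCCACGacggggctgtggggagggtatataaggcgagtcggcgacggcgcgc

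Hspb1 had 2 such matches, at -117 and -97 from the start, Hspd1 had 3 that overlap, at -144, -139 and -134, and Hspa1b had 1 at -104. The start used for Hspd1 lay 92 bases from that of its most abundant transcript; for the other 3 genes the distance was 0 to 5 bases. Searched on both strands of the 300-base windows, the 2-unit element was in 13 of 57 members (22.8%) and in 15.1% of all 32851 windows (11.8% of those of tested genes). The 3-unit form, which extends the 2-unit form by NNGAA or NNTTC and so holds it, was in 4 of 57 (7.02%): Dnajb6, Hsph1, and Hspd1 and Hspe1, which share 1 promoter. It was in 0.603% of all windows (0.476% of those of tested genes). Hspd1 was the only one of these 4 to pass against the control, and Hspb1 and Hspb8, which hold the 2-unit form, passed as lower on the scaled values, as did Dnaja4 with cAMP. The ER stress element was in Hspa5, Hsp90b1 and Dnajc3 (5.26% of members, 0.119% of all windows and 0.131% of those of tested genes). The Creb site in its full form, TGACGTCA, was in 1 member, Dnajc27 (1.75%, beside 1.79% of all windows and 2.93% of those of tested genes), which was too low to be tested. Its short form, TGACG, was in 31 members (54.4%), beside 20.8% of all windows and 30.3% of those of tested genes. Member shares count 1 window per gene, the one nearest the start of its most abundant transcript. The other shares count every window, so the 2 kinds of share are not strictly alike. These are matches of letters and were not tested for binding.

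Of the 12 tested HSP70 genes, the mitochondrial Hspa9 rose and Hspa2 fell with cAMP (the fall on the scaled values alone). None of the 12 passed with forskolin, where 3 had an unadjusted p below 0.05. That is a smaller share than among all 13764 tested genes, of which 5070 had such a p with forskolin. Hspa9, also called mortalin, drives protein import into the mitochondrion and folds what arrives. It had 40.4 scaled CPM in the control, 71.3 and 71.3 with forskolin and 118 and 118 with cAMP. The 3 groups were separate, with forskolin between the others. Hspa9 rose with cAMP by 1.52 log2 units (SE 0.37, limma adjusted p = 0.0071). With forskolin its change of 0.81 (SE 0.37) did not pass (limma adjusted p = 0.12), but did with GC content and length removed (0.75, limma adjusted p = 0.0416) and as deposited (2.84, limma adjusted p = 1.76e-05).

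Hspa5 (BiP, chromosome 2, 34771970 to 34777547), the HSP70 of the ER, had 73.8 scaled CPM in the control, 86.5 and 79.0 with forskolin and 128 and 148 with cAMP. Both cAMP libraries lay above the other 3. The change with cAMP was 0.89 (SE 0.37) and did not pass (limma adjusted p = 0.0945), but did with GC content and length removed (0.82, limma adjusted p = 0.0263) and as deposited (2.95, limma adjusted p = 1.01e-05). With forskolin the change was 0.16 (SE 0.37, limma adjusted p = 0.779).

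Hspa8, the constitutive HSP70 of the cytosol (ENSMUSG00000015656, chromosome 9, 40800984 to 40805200), had 115 scaled CPM in the control, 140 and 159 with forskolin and 96.7 and 112 with cAMP. Forskolin libraries were above the rest, but no comparison passed: the changes were 0.37 (SE 0.38, limma adjusted p = 0.492) and -0.14 (SE 0.38, limma adjusted p = 0.814; 1.93 on the deposited scale). Its transcripts were made up differently in the control, where a processed transcript took 33.1% of the gene's value against 2.58% to 7.25% with treatment. Coding transcripts took 47.6% in the control, 75.6% and 65.1% with forskolin and 94.1% and 57.0% with cAMP.

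Much of the signal that matches Hspa8 was listed under pseudogenes. Sequence comparison of annotated transcripts (at least 90% identity over at least 50% of the pseudogene) matched 17 listed pseudogenes to 11 members, and for reads shared by such copies the assignment is uncertain. Gm15459 and Gm8355, which are 99.7% and 98.7% identical to Hspa8, held nearly all of the pseudogene part, which was 55.6% of the summed value in the control, 60.0% and 55.3% with forskolin and 78.4% and 72.0% with cAMP. The sum was 259 scaled CPM in the control, 350 and 356 with forskolin and 449 and 401 with cAMP. On the sum the order of the treatments was the opposite of that for the gene alone, with cAMP highest. No comparison of the sum passed (0.45 with forskolin and 0.71 with cAMP, limma adjusted p = 0.452 and 0.226).

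The stress-inducible pair Hspa1a and Hspa1b, nearly identical neighbours whose reads cannot be separated with certainty, did not follow treatment. Hspa1b had 49.5 scaled CPM in the control, 42.0 and 73.2 with forskolin and 54.9 and 34.9 with cAMP, and Hspa1a 7.93, then 7.52 and 16.5, then 12.6 and 4.90. Summed, they gave 57.5, then 49.5 and 89.7, then 67.5 and 39.8. In both treatments 1 library lay above the control and 1 below. The changes of Hspa1b were 0.16 (SE 0.42) with forskolin and -0.17 (SE 0.42) with cAMP (limma adjusted p = 0.805 and 0.791), the second being 1.86 on the deposited scale.

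The exchange factors of the HSP110 class, which release HSP70 from its client, showed no call. Hsph1 had 6.83 scaled CPM in the control and 12.1 to 13.0 in all 4 treated libraries, a tight group above the control. Its changes of 0.80 (forskolin) and 0.79 (cAMP), each with an SE of 0.40, did not pass (limma adjusted p = 0.154 and 0.16). Hspa4 had 66.3 in the control and 52.3 to 67.6 with treatment, and Hspa4l 12.6 and 11.3 to 15.3. Hspa2, an HSP70 known from the testis, had 9.0 in the control, 4.80 and 3.42 with forskolin and 2.06 and 3.51 with cAMP. It fell with cAMP by 1.43 on the log2 scale (SE 0.47, limma adjusted p = 0.0369), a change that was 0.27 on the deposited scale and did not pass there, or without cAMP 1 (limma adjusted p = 0.125). Hspa1l was under 1 read in the control and in cAMP 2, at 1.67 and 1.19 scaled CPM with forskolin and at 0.858 in cAMP 1, and did not pass. Hspa12a, Hspa13 and Hspa14 did not pass either.

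None of the 3 HSP90 genes among the members passed on the scaled values with all libraries. As deposited Hsp90ab1 and Hsp90b1 passed as higher in both comparisons with the control and Hsp90aa1 with cAMP. The mitochondrial HSP90, Trap1, is not a member by name and is described with the cochaperones. Hsp90ab1, the constitutive form, had 616 scaled CPM in the control, 450 and 468 with forskolin and 539 and 546 with cAMP. The control was highest and forskolin lowest, yet the changes of -0.42 (SE 0.44, limma adjusted p = 0.5) and -0.18 (SE 0.44, limma adjusted p = 0.789) were within the error, and on the deposited scale they were 1.68 and 1.91 (limma adjusted p = 0.0185 and 0.0077). Hsp90b1, the ER form (Grp94), had 96.5 in the control, 96.3 and 82.7 with forskolin and 113 and 135 with cAMP. As for Hspa5, both cAMP libraries were above the rest; the changes were -0.11 with forskolin (1.96 on the deposited scale) and 0.35 with cAMP (limma adjusted p = 0.85 and 0.514).

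Hsp90aa1, the inducible form, turned on 1 library. It had 65.0 scaled CPM in the control, 58.4 and 18.9 with forskolin and 49.4 and 58.8 with cAMP, so that only forskolin 2 stood apart. As deposited, the control was lowest, at 20.6 CPM against 24.9 in forskolin 2, and the change with forskolin was 1.11. Without forskolin 1 the gene passed as lower with forskolin, against the control (-1.73, limma adjusted p = 0.0031) and against cAMP (-1.46, limma adjusted p = 0.0469); with both libraries neither passed (-0.94 and -0.67, limma adjusted p = 0.172 and 0.576). Listed beside it were 2 matched pseudogenes, mostly Gm12346 (99.5% identical), which made up 56.3% of the summed value in forskolin 2 and 11.3% to 22.2% elsewhere. The sum was 73.3 in the control, 73.0 and 43.3 with forskolin and 55.8 and 75.6 with cAMP.

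Of the 4 tested genes of the small heat shock protein list, Hspb1 and Hspb8 fell with both treatments on the scaled values and neither did as deposited, Hspb6 rose with cAMP, and Hspb7 did not pass. Hspb1 (Hsp25 in mouse; ENSMUSG00000004951, chromosome 5, 135887919 to 135889563), which is abundant in differentiating keratinocytes, had 65.9 scaled CPM in the control, 24.6 and 28.4 with forskolin and 33.3 and 15.6 with cAMP. The control lay above every treated library by a wide margin. Hspb1 fell by 1.29 on the log2 scale with forskolin (SE 0.43, limma adjusted p = 0.0405) and by 1.49 with cAMP (SE 0.43, limma adjusted p = 0.0192), changes that were 0.76 and 0.55 on the deposited scale and did not pass there. The first call was lost without forskolin 1 (-1.19, limma adjusted p = 0.0593), with scaling to nuclear genes (-1.16, 0.0562) and at a pseudocount of 0.1 (-1.31, 0.0568). The second was lost without cAMP 2 (-0.96, limma adjusted p = 0.139). Its pseudogene Hsp25-ps1, 99.4% identical, moved the same way. The sum of the 2 was 162 in the control, 47.6 and 61.7 with forskolin and 52.5 and 25.9 with cAMP, and passed in both comparisons (-1.56 and -2.10, limma adjusted p = 0.0157 and 0.0021).

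Hspb8 (ENSMUSG00000041548, chromosome 5, 116408491 to 116422864), which works with the cochaperone Bag3 in clearing misfolded proteins, had 59.9 scaled CPM in the control, 22.4 and 12.7 with forskolin and 19.0 and 14.3 with cAMP. The control was again above all 4 treated libraries. Hspb8 fell by 1.77 on the log2 scale with forskolin (SE 0.42, limma adjusted p = 0.0068) and by 1.80 with cAMP (SE 0.42, limma adjusted p = 0.0053), and these changes were 0.27 and 0.23 on the deposited scale. Its partner Bag3 did not pass: it had 6.64 in the control and 8.77 to 15.5 with treatment. Hspb1 and Hspb8 are also expressed in muscle; skeletal muscle markers, of which 5 of 10 fell with forskolin (1 with scaling to nuclear genes) and 2 with cAMP, moved in the same direction, as did the keratinocyte markers Krtdap with both treatments and Krt10 with cAMP. None of these passed as lower on the deposited scale, where 1 of the 8 keratinocyte markers lay below 0 in each comparison. Dermal fibroblast markers summed to 575 scaled CPM in the control, 228 and 394 with forskolin and 247 and 410 with cAMP, with Pdgfra under 1 read in the control. As deposited, their sum was lowest in the control, 182 against 324 to 518 with treatment. Of the 6 tested, 4 fell with forskolin (3 as deposited; median -3.38) and 1 with cAMP (none as deposited; median -1.78). The part of these cells in the result was not tested.

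The other small heat shock genes were low. Hspb6, known from muscle, had 1.09 scaled CPM in the control, 2.23 and 2.46 with forskolin and 3.10 and 7.18 with cAMP. It rose with cAMP by 1.47 log2 units (SE 0.52), a call lost without cAMP 2, its highest library (0.97). Its coding transcript had 1.09 in the control, 0.286 and 1.22 with forskolin and 1.37 and 1.12 with cAMP. The rise lay in its processed transcripts, at 0.000278 in the control, 1.95 and 1.24 with forskolin and 1.73 and 6.06 with cAMP. Hspb6 had 0.344 deposited CPM in the control, so it passed the filter only through the treated libraries, and its p-value is not given. Hspb7 had 3 estimated reads in the control and 0.218 to 2.10 scaled CPM with treatment, and did not pass. Hspb11, which by its known role belongs to intraflagellar transport in cilia, was under 1 read in the control, at 1.62 and 1.43 scaled CPM with forskolin and at 2.76 and 2.91 with cAMP. Set against 3 reads per library, the limit used for a gene not detected, Hspb11 was at least 7.97-fold higher with forskolin and at least 14.8-fold higher with cAMP. It is among the cAMP calls, but passed the filter on low values only through the treated libraries, so its p-value is not given. Hspb2 and Hspb9 were too low to be tested.

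Hspd1 and Hspe1 encode the 2 parts of the mitochondrial folding chamber, HSP60 and its lid HSP10, and are transcribed away from each other from the shared promoter shown above. Hspd1 (ENSMUSG00000025980, chromosome 1, 55077835 to 55088243) had 18.9 scaled CPM in the control, 47.4 and 43.7 with forskolin and 81.9 and 65.5 with cAMP. The 3 groups were separate. As listed, Hspd1 rose by 1.22 log2 units with forskolin (SE 0.37, limma adjusted p = 0.0263) and by 1.90 with cAMP (SE 0.37, limma adjusted p = 0.0016) (the largest rise with cAMP among members with a mean of at least 5 scaled CPM). Hspe1 (chromosome 1, 55088132 to 55091307) had 22.8 in the control, 29.2 and 20.4 with forskolin and 44.1 and 31.3 with cAMP, and did not pass (0.09 and 0.68, limma adjusted p = 0.882 and 0.224).

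Both Hspd1 calls were lost when its pseudogene was added. Hspd1-ps3, 99.0% identical to Hspd1, took 70.0% of their summed value in the control, 27.9% and 30.5% with forskolin and 25.1% and 43.7% with cAMP. The sum was 62.9 in the control, 65.8 and 62.8 with forskolin and 109 and 116 with cAMP. On the sum the forskolin libraries sat at the control's level (0.03, SE 0.37, limma adjusted p = 0.961), and the cAMP libraries stayed above it without passing (0.83, SE 0.37, limma adjusted p = 0.111). The forskolin call was also lost without forskolin 1 (limma adjusted p = 0.0603).

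**Figure D3:**
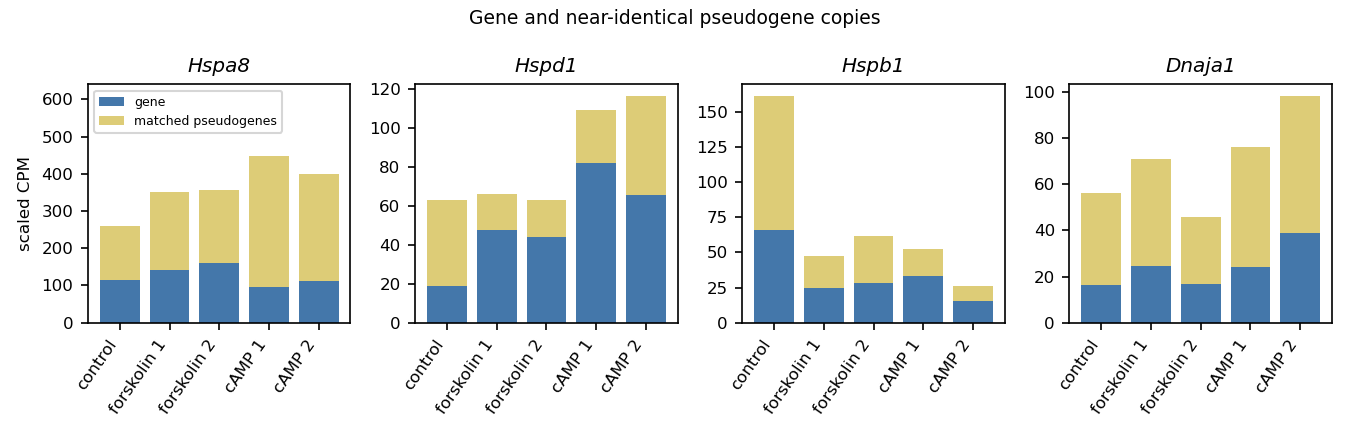
Scaled CPM of 4 chaperone genes (blue) and of the listed pseudogenes that match them (yellow) in each library, stacked. For Hspd1 the gene alone is lowest in the control while the sum is 62.9 there and 62.8 to 65.8 with forskolin; for Hspb1 gene and pseudogene are both highest in the control, which on the deposited CPM they are not.

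J-domain proteins, which bring clients to HSP70 and start its ATPase, formed the largest group. Of the 39 tested DnaJ genes, Dnajb5, Dnajc6 and Dnajc30 rose and Dnajb1 and Dnajc19 fell in both comparisons on the scaled values, Dnajc1 rose with forskolin and Dnaja4 fell with cAMP. Dnajb1 (Hdj1, ENSMUSG00000005483), the main inducible cytosolic form, had 54.4 scaled CPM in the control, 26.3 and 23.9 with forskolin and 22.5 and 21.5 with cAMP. The treated libraries were close together, all at less than the control. Dnajb1 fell by 1.09 on the log2 scale with forskolin (SE 0.37, limma adjusted p = 0.0448) and by 1.27 with cAMP (SE 0.37, limma adjusted p = 0.0206), and these changes were 0.95 and 0.76 on the deposited scale and did not pass. The forskolin call was lost without any 1 of the 4 treated libraries (limma adjusted p = 0.0561 to 0.131), and the cAMP call without cAMP 1 (0.062) or cAMP 2 (0.069).

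Dnaja1, the main cytosolic type A protein, had 16.3 scaled CPM in the control, 24.6 and 16.9 with forskolin and 24.0 and 38.8 with cAMP, and did not pass (0.31 and 0.87, limma adjusted p = 0.606 and 0.135), but did with cAMP with GC content and length removed (1.11, limma adjusted p = 0.017). Its 2 matched pseudogenes made up 60.6% to 71.0% of the summed signal in every library, and the sum did not pass either. Dnaja4 had 20.9 in the control, 9.41 and 10.4 with forskolin and 7.94 and 5.74 with cAMP. It fell with cAMP by 1.5 on the log2 scale (SE 0.41, limma adjusted p = 0.0152), 0.42 on the deposited scale, and not without cAMP 2 (limma adjusted p = 0.0665). With forskolin the change of -1.01 (0.93 on the deposited scale) did not pass (limma adjusted p = 0.086). Dnaja4 overlaps Wdr61 on the opposite strand by 1581 bases, and strand use in counting was not given in the sources used here.

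Of the low J-domain genes that rose, Dnajb5 had 0.255 scaled CPM in the control, 6.11 and 2.91 with forskolin and 3.12 and 2.52 with cAMP. It rose by 2.07 and 1.60 log2 units. Neither call held with GC content and length removed (1.55 and 1.25). The first was also lost without forskolin 1 (1.64) and the second without cAMP 1 (1.49) or cAMP 2 (1.71). With 0.081 deposited CPM in the control, Dnajb5 passed the filter only through the treated libraries, and its p-values are not given. Dnajc6, auxilin, which strips clathrin coats from vesicles with Hspa8, was under 1 read in the control, at 2.65 and 2.77 with forskolin and at 2.27 and 2.36 with cAMP. It too passed the filter only through the treated libraries, and its p-values are not given. Set against the same limit, Dnajc6 was at least 14.2-fold higher with forskolin and at least 12.1-fold higher with cAMP. Dnajc30, a mitochondrial J-domain protein, had 3 estimated reads in the control (0.192 scaled CPM), 1.82 and 3.38 scaled CPM with forskolin and 4.62 and 4.35 with cAMP. Its ratios to the control were 13.6 (counting interval 4.65 to 65.8) and 23.4 (8.01 to 114). It is among the calls of both comparisons, the first not without forskolin 2. With 0.0607 deposited CPM in the control, it also passed the filter only through the treated libraries, and its p-values are not given. Dnajc30 shares 758 bases with Wbscr22 on the opposite strand.

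Other J-domain genes serve the ER and the mitochondrion. Dnajc1, a membrane protein of the ER that holds BiP near the ribosome, had 4.57 scaled CPM in the control, 12.6 and 13.9 with forskolin and 8.87 and 8.47 with cAMP. It rose with forskolin by 1.35 log2 units (SE 0.41, limma adjusted p = 0.0255), but not without forskolin 2 (limma adjusted p = 0.0936), and with cAMP its change of 0.80 did not pass (limma adjusted p = 0.167). Dnajc3, an ER protein induced by the unfolded protein response, had 10.7 in the control, 19.2 and 16.2 with forskolin and 16.4 and 28.1 with cAMP, all above the control without a call (0.68 and 0.95, limma adjusted p = 0.241 and 0.106). With cAMP it passed with GC content and length removed (1.05, limma adjusted p = 0.0241). Dnajb9, also an ER stress gene, had 8.88 in the control and 2.45 to 5.70 with treatment, and did not pass. As deposited, Dnajb9 had 2.81 CPM in the control and 3.96 to 8.10 with treatment. Dnajc19, part of the motor that pulls proteins into the mitochondrion, had 17.5 in the control, 4.49 and 4.73 with forskolin and 4.52 and 6.24 with cAMP. It fell by 1.72 on the log2 scale with forskolin and by 1.55 with cAMP (limma adjusted p = 0.0101 and 0.0161), changes of 0.16 and 0.32 on the deposited scale. On the opposite strand Dnajc19 overlaps Fxr1 by 14303 bases of its span, and Dnajc1 overlaps Mllt10 by 16735. Summed with its pseudogene, Dnajc19 still passed with forskolin (-1.43, limma adjusted p = 0.019) and not with cAMP (-0.91, limma adjusted p = 0.114), where the call of the gene alone was also lost without cAMP 1 (0.064).

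No member passed in the only comparison with 2 libraries on each side, forskolin against cAMP, where limma called 48 genes, 0.349% of those tested (0.0944% as higher and 0.254% as lower; on the deposited scale 0.378%, 0.189% in each direction, again with no member). An unadjusted p below 0.05 was found for 4 members, of 1546 such genes in all, and all 4 were lower with forskolin: Dnaja3 (-0.76), Hspa5 (-0.73), Hspa9 (-0.72) and Hspd1 (-0.68), with limma adjusted p = 0.364 to 0.416. Dnaja3, the mitochondrial partner of Hspa9, had 12.9 and 14.0 scaled CPM with forskolin, 21.9 and 25.1 with cAMP and 15.5 in the control. The median member was 0.18 log2 units lower with forskolin, beside 0.02 higher for all tested genes. Both forskolin libraries were below both cAMP libraries in 22 of 65 members (33.8%), beside 20.4% of all tested genes. They were above them in 8 (12.3%), beside 21.2% of all tested genes. At the upper end were Hspa1l (0.83), Dnajc1 (0.56) and Hspa8 (0.51), none of which passed.

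**Figure D4:**
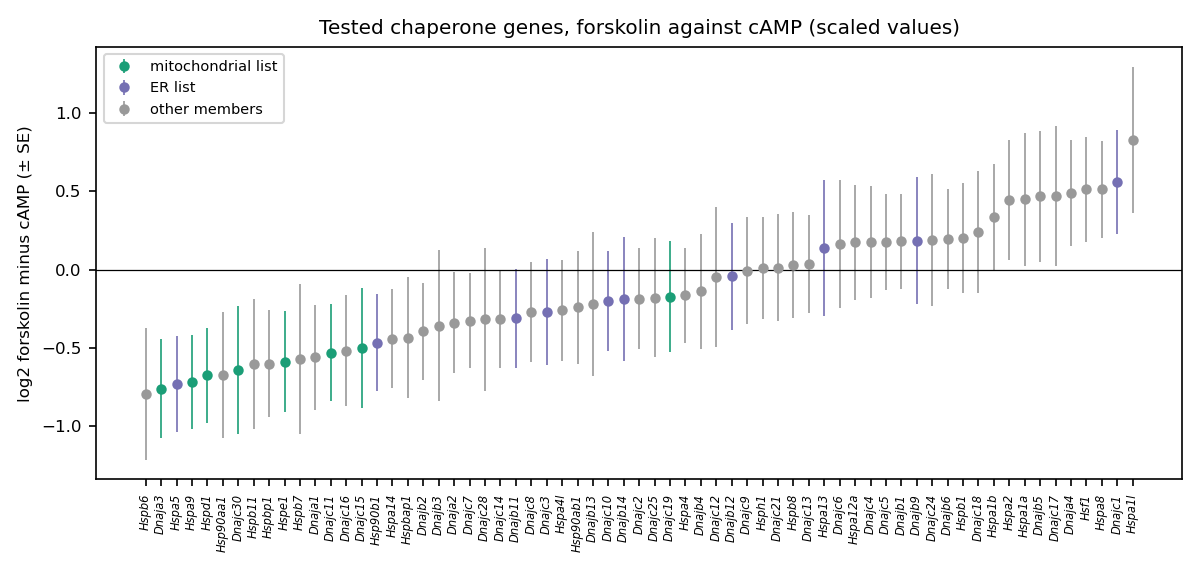
Log2 difference of forskolin minus cAMP (points, with SE bars) for the 65 tested chaperone genes in order of size, colored by compartment list. No gene passed. All 8 members of the mitochondrial list lie below 0, from -0.76 to -0.17.

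Grouped by compartment, the 8 members of the mitochondrial list were all lower with forskolin than with cAMP. The list was fixed by name and may leave out other mitochondrial members. Its genes summed to 145 scaled CPM in the control, 189 and 183 with forskolin and 314 and 282 with cAMP. The lower level held for 8 of 8 on both the scaled and the deposited values, where 52.1% and 52.7% of all tested genes were above 0. It held without overlap for 7 of 8 on the scaled values (20.4% of all tested genes). On the deposited values this was 6 of 8, for which the share of all genes was not computed. Their median difference was -0.61, which was 0.64 below the median of all tested genes, and 0.50 to 0.72 below it in the alternatives run. None passed on its own, and 3 had an unadjusted p below 0.05. Against the control, Hspd1 and Dnajc30 rose and Dnajc19 fell with forskolin, and Hspa9 joined the rises with cAMP (medians -0.05 and 0.62). The Hspd1 part of this holds only for the gene without its pseudogene. Sebocyte markers moved with the mitochondrial members: 8 of 8 were lower with forskolin than with cAMP, 2 of them (Cidea and Elovl3) past the test, and their sums differed by more than the chaperones' did. The share of the library taken by mitochondrially encoded genes did not follow the treatments, at 50.7% and 45.6% with forskolin and 43.2% and 58.1% with cAMP. The part of either in the result was not tested.

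ER members summed to 255 scaled CPM in the control, 293 and 256 with forskolin and 336 and 410 with cAMP. Of the 10 ER members Dnajc1 alone passed with forskolin, and with cAMP limma called none. With cAMP 3 of the 10 had an unadjusted p below 0.05 (Hspa5, Dnajc3 and Dnajb9, the last in the lower direction). That is a smaller share than among all 13764 tested genes, of which 5042 had such a p with cAMP. Members of the stress-inducible list, which crosses families, summed to 1182 in the control, 968 and 953 with forskolin and 1066 and 1037 with cAMP. On the deposited scale the control had the lowest sum, 375 against 1158 to 1761 with treatment. Of its 14 genes, Hspd1 rose and Hspb1, Hspb8 and Dnajb1 fell in both comparisons, and the median changes were -0.04 and -0.16, against 0.18 and 0.16 for all tested genes. As deposited, 10 and 11 of the 14 passed as higher and none as lower. Of all tested genes 66.3% and 65.1% passed as higher on that scale, and 0.341% and 0.436% as lower.

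Partners outside the named families were read from lists of genes. Of the 16 genes listed as HSP90 cochaperones, 4 rose in each comparison and none fell. Of all tested genes 14.4% and 14.8% passed as higher. The rises were Fkbp5, Tomm34 and Ttc4 in both, Unc45a with forskolin and, with cAMP, Trap1, which is itself the mitochondrial HSP90. Tomm34 and Ttc4 passed the filter only through the treated libraries, so the counts are not read as an excess over all genes. The medians were 0.49 and 0.68, against 0.18 and 0.16 for all tested genes. As deposited 16 of 16 passed as higher in both, where 66.3% and 65.1% of all tested genes did. Ttc4, an adaptor that binds HSP90 and HSP70, had 1.09 scaled CPM in the control, 13.1 and 10.7 with forskolin and 14.5 and 13.5 with cAMP. It rose by 2.62 and 2.85 log2 units. Fkbp5, which sets the hormone response of the glucocorticoid receptor and is itself a glucocorticoid target, had 20.4 in the control, 53.9 and 46.3 with forskolin and 82.8 and 70.6 with cAMP (1.25 and 1.86, limma adjusted p = 0.0233 and 0.0019). For Fkbp5 the 3 groups were separate, in the same order as for Hspa9. Tomm34, which hands precursors to the mitochondrial import pore, rose from 2.24 in the control to 8.51 to 13.9 with treatment (1.86 and 1.88). Ttc4 and Tomm34 were below the filter's 1 deposited CPM in the control. Both passed the filter only through the treated libraries, so their p-values are not given.

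Of 17 HSP70 cochaperones, Bag1, an exchange factor, fell in both comparisons and Hspbp1, another exchange factor, rose with cAMP. Bag1 had 91.5 scaled CPM in the control and 33.3 to 45.5 with treatment. It fell by 1.30 on the log2 scale with forskolin and by 1.21 with cAMP (limma adjusted p = 0.0215 and 0.0281), changes of 0.76 and 0.85 on the deposited scale. Without forskolin 2 (0.0531) or cAMP 2 (0.127) the respective call of Bag1 was lost. Hspbp1 had 3.77 in the control, 7.83 and 7.11 with forskolin and 12.4 and 11.2 with cAMP, and rose with cAMP by 1.43 (SE 0.42, limma adjusted p = 0.0203), but not without cAMP 1 (limma adjusted p = 0.0646) or with GC content and length removed (0.113). Hspbap1, which binds Hspb1, rose with cAMP from 0.766 to 4.45 and 4.32 (1.61), a call lost without cAMP 1 (1.59). It had 0.243 deposited CPM in the control, so it passed the filter only through the treated libraries, and its p-value is not given.

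Of the 14 genes of the cytosolic chaperonin TRiC and its feeder prefoldin, only the prefoldin subunit Pfdn5 passed, as lower in both comparisons: 88.6 scaled CPM in the control, 27.7 and 24.6 with forskolin and 40.1 and 30.6 with cAMP (-1.73 and -1.31, limma adjusted p = 0.0042 and 0.0186; 0.33 and 0.74 as deposited). The second was lost without cAMP 2 (limma adjusted p = 0.0925). None of the 14 passed between the treatments (limma, 1 with an unadjusted p below 0.05). All 14 were lower with forskolin than with cAMP, with a median of -0.31, where 52.1% of all tested genes were above 0. Of 18 genes of the unfolded protein response, only Syvn1, a ubiquitin ligase of ER degradation, passed, from 4.53 in the control to 13.0 to 23.7 with treatment (1.95 and 1.75, limma adjusted p = 0.0044 and 0.0078; the second not without cAMP 1, 0.0663). Manf, a secreted ER stress protein, had 10.8 in the control, 12.9 and 14.4 with forskolin and 25.5 and 22.1 with cAMP without a call (limma adjusted p = 0.58 and 0.055), though with cAMP it passed with scaling to nuclear genes (1.13, 0.0433) and as deposited (2.91). Immediate-early genes, which respond to cAMP and to tissue handling alike, rose in 6 of 12 cases with forskolin and 7 with cAMP (11 in each as deposited), where 14.4% and 14.8% of all tested genes passed as higher, among them Fosb (3.54 and 2.24, limma adjusted p = 0.00025 and 0.0061) and Ier2 (2.32 and 2.97, limma adjusted p = 0.0013 and 0.00014). As deposited, 66.3% and 65.1% of all tested genes passed as higher. With forskolin Hsf1 rose beside the immediate-early genes, while the inducible Hspa1a and Hspa1b passed in neither comparison.

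Values were too low to be tested for 6 members: Dnajb7, Dnajc22, Dnajc27, Hspa12b, Hspb2 and Hspb9. A further 6 that were tested (Dnajb3, Dnajb13, Dnajc6, Dnajc12, Hspa1l and Hspb11) were under 1 read in the control, so they passed the filter only through the treated libraries. The same holds for tested members with more reads but less than 1 deposited CPM there, Dnajb5, Dnajc30, Hspb6 and Hspbap1 among them. Of the 65, 11 had fewer than 20 estimated reads in the control.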

How the data were processed

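RNA-seq libraries of mouse epidermis were compared from a table of transcripts. The values deposited by the authors were CPM, a unit read from the values; the tools named per the submitters' processing notes were STAR, Partek and bcl2fastq 2.17, and the genome build was not given in the sources used here. Of its 59869 transcripts, 98.3% were in GENCODE M21 (GRCm38), and coordinates are the table's. The values were summed per gene; 3 rows without a gene held at most 0.0679% of a library. The table held a small offset in place of 0; depths and the floor of 3 reads take it as 0.0001 read and cover counting error only.

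Scaled CPM is CPM over a median-of-ratios size factor, computed on the 11512 genes that all libraries listed above 0.05 CPM. The filter on low values, 1 CPM or more in 2 or more libraries, left 13764 genes, tested with limma 3.58.1 (R 4.3.3, intensity trend) on log2(scaled CPM + 1), which understates changes of low genes, with 5 libraries and 3 groups in 1 fit, 2-sided, Benjamini-Hochberg at 0.05. The control has no replicate and was assumed to vary as the treated libraries. A gene below 1 CPM in the control passed the filter only through treated libraries. The fit was tested on simulated data. blastn 2.17.0 matched pseudogenes, a step chosen after seeing the data.

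Named were 18 members fixed by name and, per comparison, the 6 largest rises and falls that passed without overlap at a mean of at least 5 scaled CPM (at least 3 by smallest p), and 2 genes per pathway list. All other genes named, Dnajb5, Dnajc6, Dnajc30, Hspa2, Hspb6, Hspb11, Hspbap1, Trap1, Unc45a and Bag3 among them, were chosen after their values were seen. The members, lists and scaling were chosen with earlier results of these data known.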

Additional observations from a re-analysis of the deposited data

How the results depend on the processing

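With the deposited CPM, genes called rose to 9177 with forskolin and 9025 with cAMP, members called higher to 44 and 45, and members called lower fell to 0 and 0; 99.5% and 99.3% of all calls were then higher, against 66.1% and 65.6%. Of the genes under the naming rule, those that passed on at least 1 of the 2 scales and were lower as scaled but higher as deposited were, with forskolin, Hsp90ab1 (1.68), Hsp90b1 (1.96), Hspb1 (0.76), Hspb8 (0.27), Dnajb1 (0.95), Dnajc19 (0.16), Bag1 (0.76) and Pfdn5 (0.33). With cAMP they were Hspa8 (1.93), Hspa1b (1.86), Hsp90aa1 (1.78), Hsp90ab1 (1.91), Hspb1 (0.55), Hspb8 (0.23), Dnajb1 (0.76), Dnajc19 (0.32), Dnaja4 (0.42), Bag1 (0.85) and Pfdn5 (0.74). Outside that rule such members with cAMP included Hspa2 (0.27), Dnaja2 (1.84), Dnajb4 (1.47), Dnajc8 (1.57) and Hspa4 (2.04). With forskolin they included Dnaja2 (1.51), Dnajb4 (1.34), Dnajc8 (1.30) and Hspa4 (1.88). With no filter on low values 1995 genes passed with forskolin, 1 member as higher and 0 as lower; with cAMP 5 members passed as higher and 1 as lower. A filter at 10 CPM, which tests fewer genes, gave 1514 and 1539 genes and 3 members higher in each. Scaling to nuclear genes left 2 members lower with forskolin. Leaving out 1 library gave 3 to 7 members lower with cAMP. Between the treatments, genes called were 8 at a pseudocount of 0.1, 0 with no filter, 109 at 10 CPM, 20 with GC and length removed and 0 to 203 without 1 library, with 0 to 1 members lower. Where no cause is named, the cause was not tested.

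Replicate numbers did not pair the libraries (r = -0.07 across 13764 genes between the forskolin 1 minus 2 and cAMP 1 minus 2 differences). The fit with a replicate block called 187 genes between the treatments and 0 members. Low depth in nuclear genes of the control limits every comparison with it.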
